A study of Homo sapiens with 6 samples.

Results

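The DEAD and DEAH box RNA helicases were described here as the protein-coding genes whose symbol is DDX or DHX followed by a number. The rule gave 54 genes, 38 DDX and 16 DHX, of the 65988 gene identifiers counted. DDX3Y is Y-linked and its values are not given, so counts below are over the other 53 genes. The cells were U87MG, an established human glioblastoma line labelled wild type. The 3 control libraries came from cells given vehicle. The 3 RSL3 libraries came from cells given RSL3 at 2 µM, a covalent inhibitor of the lipid peroxidase GPX4 that triggers ferroptosis. The treatment time is 24 h in the study's text and is not in the labels. Reads of poly(A) RNA were counted per gene. U87MG is 1 cell line in culture, and the labels do not say whether the libraries of a group came from separate cultures, while the study speaks of independent experiments or samples for its results in general. If they did not, p-values measure only the spread between these libraries, which may be technical.

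RNA helicases of these families use ATP to open short RNA duplexes or to strip proteins from RNA, and their names come from the Asp-Glu-Ala-Asp or Asp-Glu-Ala-His residues of a conserved motif that binds and hydrolyses ATP. In the nucleolus they remodel the precursors of the ribosomal subunits, in the spliceosome they drive the exchanges between small nuclear RNAs, and in the cytoplasm they act in translation, decay and the sensing of foreign RNA. DDX10 works in the nucleolus on the precursor of the small ribosomal subunit.

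Total counts ranged from 27813462 to 43306335 reads per library, and a normalized count below is a count scaled to the mean library size. Mitochondrial transcripts made up 0.918% to 1.26% of counts in control libraries and 0.840% to 0.912% in RSL3 libraries; the part of this in the results was not tested. Of 9 glioblastoma and mesenchymal markers, 8 were tested and 5 called, 1 upregulated and 4 downregulated, against 25.6% of all genes tested. VIM, CD44 and FN1 had at least 15961 counts in every library. Other markers of the list were far lower: GFAP had 82 to 154 counts, OLIG2 247 to 368 and the stem cell factor SOX2 0 to 2. Of 10 markers of other cells, 6 were tested and 3 called, and their summed level was 32.3 to 32.7 CPM (the usual scaling of counts to library size) in control and 37.0 to 37.4 CPM in RSL3 libraries. The 9 glioblastoma and mesenchymal markers summed to 5017 to 5214 CPM in control and 4200 to 4458 CPM in RSL3 libraries. The leukocyte marker PTPRC had 0 to 1 counts and the oligodendrocyte marker MOG had 0, whereas the neuronal gene SYT1 had 743 to 1122. CD44 and CHI3L1 fell (log2 fold changes -0.39 and -0.56), MBP and SYT1 rose (0.71 and 0.24), and VWF fell (-1.33). The part of these cell markers in the results was not tested.

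The promoters of 3 helicase genes are shown first, because DDX10 and DDX60 had the largest changes of the family in each direction and DDX60L is the neighbouring paralog of DDX60. Each sequence is the 250 bases before the transcription start that RefSeq gives on GRCh38.p14, read 5′ to 3′ on the strand of the gene. The DDX10 window is chr11:108664819-108665068 on the plus strand, the DDX60 window is chr4:168318753-168319002 and the DDX60L window is chr4:168480493-168480742, both on the minus strand. Capitals mark matches to the cyclic AMP response element TGACGTCA, a site of ATF and CREB factors, in DDX10, and to GAAA followed by any 2 bases and GAAA again, the core of the interferon-stimulated response element, in DDX60 and DDX60L.
DDX10: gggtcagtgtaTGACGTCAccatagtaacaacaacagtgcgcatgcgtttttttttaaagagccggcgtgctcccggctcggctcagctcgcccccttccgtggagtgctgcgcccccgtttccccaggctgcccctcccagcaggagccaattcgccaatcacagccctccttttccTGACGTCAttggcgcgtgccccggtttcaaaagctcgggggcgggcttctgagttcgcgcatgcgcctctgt
DDX60: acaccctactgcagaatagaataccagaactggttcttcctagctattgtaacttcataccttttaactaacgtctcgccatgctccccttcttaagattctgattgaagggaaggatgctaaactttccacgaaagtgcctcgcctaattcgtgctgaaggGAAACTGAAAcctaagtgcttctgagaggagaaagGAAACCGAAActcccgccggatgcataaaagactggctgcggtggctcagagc
DDX60L: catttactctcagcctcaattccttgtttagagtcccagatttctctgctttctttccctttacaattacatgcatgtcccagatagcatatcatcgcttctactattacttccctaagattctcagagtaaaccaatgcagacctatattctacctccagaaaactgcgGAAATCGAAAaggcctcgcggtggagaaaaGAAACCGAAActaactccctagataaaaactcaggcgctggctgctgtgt

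The DDX10 window held TGACGTCA 2 times, from 239 to 232 and from 72 to 65 bases before the start. Over all 35116 such windows in the table, searched on both strands, 1.65% held it at least once and 0.0541% at least 2 times. The table had 63 windows for 48 helicase genes and none for DDX18, DDX49, DDX52, DHX33 and DHX58, which were not searched. Among the 48 genes, 5 held it in at least 1 window, against 2.03% of all 27305 genes, namely DDX10, DDX19A, DDX28, DDX51 and DHX36. The interferon element core occurred 2 times each in DDX60 and DDX60L and once in DHX15, against 3.02% of all windows with at least 1 match and 0.225% with at least 2. The MYC-type E-box CACGTG was found in 9 of the 63 helicase windows, against 6.34% of all windows, and the antioxidant response element core TGACNNNGC in 10 of the 63, against 10.9%. DDX10 and DDX60 held neither of those. The search did not show whether any factor was bound. The TGACNNNGC and TGACGTCA letters begin alike but cannot match from the same base on the same strand.

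Of the 53 genes, 47 passed the filter on low counts and were entered the quasi-likelihood test of edgeR, in which Benjamini-Hochberg adjustment ran over all 16105 genes that passed. Of these 47 helicases, 10 were called at an adjusted p under 0.05, 6 upregulated and 4 downregulated by RSL3. That is 21.3% of the helicases, against a background of 25.6% of all genes tested (12.9% upregulated and 12.7% downregulated). The upregulated genes were DDX10, DHX34, DHX36, DHX8, DDX3X and DHX15, and the downregulated genes were DDX60, DHX58, DDX39A and DDX49. Most changes were small: 34 of the 47 genes had an absolute log2 fold change under 0.1. The median log2 fold change was 0.03 over the 47 helicases and -0.0044 over all genes tested. In 16 of the 47 genes (34.0%) the RSL3 libraries lay wholly above or wholly below the control libraries, against 38.6% of all genes tested.

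The number of called helicases was 6 without control replicate 1 and also 6 without RSL3 replicate 1. The share of all genes called in those fits is not given here. With a size limit added, an absolute log2 difference of 0.25 or more, 3 genes were left, DDX10, DDX60 and DHX58, against 12.1% of all genes tested.

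**Figure D1:**
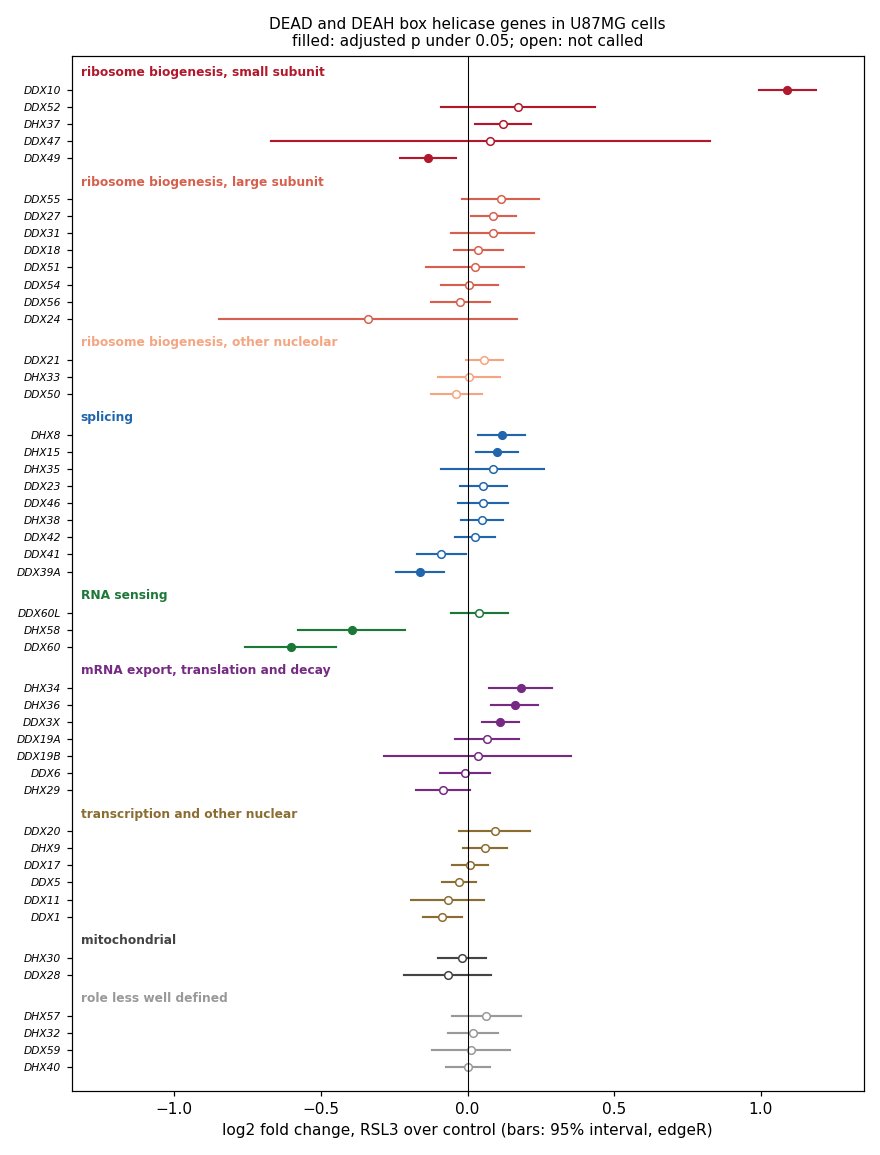
Log2 fold change of each tested helicase gene, RSL3 over control, on the horizontal axis, with genes grouped by role. Points are edgeR estimates from 3 libraries per group, bars are 95% intervals, and filled points had an adjusted p under 0.05; DDX10 stands at 1.09 and the next highest gene, DHX34, at 0.18.

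Ribosome biogenesis helicases of the small subunit were DDX10, DDX47, DDX49, DDX52 and DHX37. DDX10 (ENSG00000178105) lies on the plus strand of chromosome 11 of GRCh38, from 108665058 to 108940999, and shares no exon base with another gene of the GENCODE v44 annotation. Its normalized count was 1155, 1199 and 1230 in control replicates 1, 2 and 3, and 2518, 2681 and 2427 in RSL3 replicates 1, 2 and 3. Every RSL3 library was thus above every control library, by far more than the spread within either group. The means were 1195 ± 37.7 (SD, n = 3) and 2542 ± 129 (SD, n = 3), a log2 fold change of 1.09 (standard error 0.05, 95% interval 0.99 to 1.19), or 2.13-fold (edgeR adjusted p = 1.645e-12). DDX10 had been singled out with this result known, so its call is a description and not independent evidence.

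Among all genes called as upregulated, DDX10 was number 86 of 2082 by fold change. Of the 4231 genes with a mean level at least as high as that of DDX10, itself included, 0 had a larger log2 fold change. DDX10 provided 0.909% of the summed normalized counts of the 47 helicases in control cells and 1.89% in RSL3-treated cells. The sum itself was 131491 in control and 134824 in RSL3-treated cells.

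**Figure D2:**
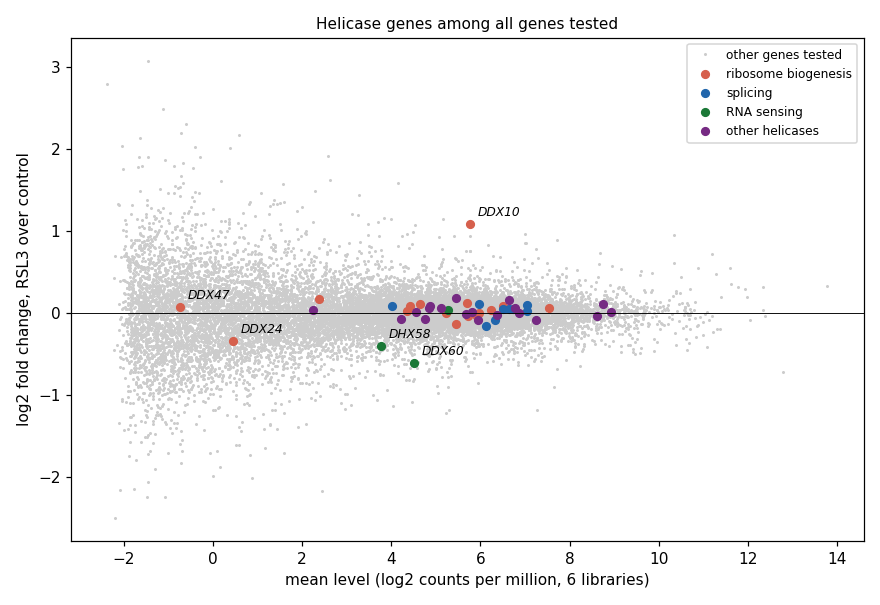
Log2 fold change, RSL3 over control, against the mean level in log2 CPM over the 6 libraries, for all genes tested outside the Y chromosome (grey) and for the 47 helicase genes (colored by role). DDX10, at a log2 fold change of 1.09, lies above every gene of its level or higher, and DDX60 and DHX58 have the lowest values of the helicases.

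The other small-subunit helicases did not share this size of change. DDX49, which acts early on the small-subunit precursor, had 1593, 1500 and 1578 normalized counts in the control libraries and 1429, 1450 and 1385 in the RSL3 libraries. All 3 RSL3 libraries were below the lowest control library. The log2 difference was -0.14 ± 0.05 (SE, edgeR adjusted p = 0.0343), and this call was kept in 5 of 14 alternative settings. DHX37, which releases a small nucleolar RNA from the precursor, had 1692, 1601 and 1764 against 1848, 1765 and 1889 normalized counts, with groups that did not overlap but an edgeR adjusted p of 0.0622 (log2 fold change 0.12); without control replicate 3 it was called (0.16, edgeR adjusted p = 0.0295). DDX52 had a log2 fold change of 0.17 with a 95% interval from -0.09 to 0.43. DDX47 had only 15 to 26 raw counts per library, and its 95% interval ran from -0.67 to 0.83.

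Of the 8 large-subunit helicases, 0 were called by edgeR, against 25.6% of all genes tested. At an unadjusted p under 0.05 there was 1, DDX27. DESeq2 with 0, 1 or 2 surrogate variables also called 0 of the 8. DDX27 was called in 1 of 14 alternatives, edgeR with the replicate number as a block (edgeR adjusted p = 0.0472). DDX27, which acts with the complex that forms the large-subunit core, had 3018, 3096 and 2911 normalized counts in control and 3141, 3290 and 3155 in RSL3 libraries. The lowest RSL3 library exceeded the highest control library, with a log2 fold change of 0.09 (95% interval 0.01 to 0.17, edgeR adjusted p = 0.0872). DDX18, DDX31, DDX51, DDX54, DDX55 and DDX56 had log2 fold changes between -0.03 and 0.11. DDX24 was low, with 36 to 62 raw counts per library, and had a log2 fold change of -0.34 (95% interval -0.85 to 0.17).

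Among the other nucleolar helicases, DDX21, an abundant protein of ribosomal RNA synthesis, had 6215, 6269 and 6260 normalized counts in control and 6430, 6568 and 6493 in RSL3 libraries. These groups did not overlap, but the shift was small (log2 fold change 0.06, 95% interval -0.01 to 0.12, edgeR adjusted p = 0.187). Its paralog DDX50 and DHX33 had log2 fold changes of -0.04 and 0.0045. Without DDX10, 1 of the 15 ribosome biogenesis helicases was called (6.67%, against 25.6% of all genes tested). The median log2 fold change of these 15 helicases was 0.04.

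Ribosome biogenesis factors that are not DDX or DHX helicases gave a broader picture. Of 86 such genes listed, 83 were tested, and 23 of them rose while 1 fell, which is 27.7% upregulated against 12.9% of all genes. Their median log2 fold change was 0.08, and the largest was 0.38. PDCD11, a component of the small-subunit processome, had 2192 ± 68.8 normalized counts in control and 2695 ± 62.2 in RSL3-treated cells (SD, n = 3 each). MDN1, the giant ATPase that strips factors from the large-subunit precursor, had 4692 ± 264 against 5706 ± 113 (SD, n = 3 each). The log2 fold changes of these genes, 0.30 and 0.28, had the smallest p of the list in that direction. The gene that fell was UBTF, a transcription factor of RNA polymerase I, with a log2 fold change of -0.24 (edgeR adjusted p = 0.000136). NOL10, whose yeast counterpart binds the yeast counterpart of DDX10, was not called (log2 fold change 0.07, edgeR adjusted p = 0.343).

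The 3 tested genes on either side of DDX10 on chromosome 11 were also read. EXPH5, the nearest tested gene before it, encodes a protein of vesicle traffic and rose from 74.8 ± 23.8 to 134 ± 19.6 normalized counts (SD, n = 3 each; log2 fold change 0.88, edgeR adjusted p = 0.00257). POGLUT3 and C11orf65, farther before it, had log2 fold changes of -0.05 and 0.39 and were not called. After DDX10, the poorly counted C11orf87 had a log2 fold change of -1.23 and was not called (edgeR adjusted p = 0.0854). RDX, which links actin to the membrane, fell slightly (-0.12), and ZC3H12C, an RNase of inflammatory transcripts, rose slightly (0.17). The 6 neighbours thus had log2 fold changes of both signs.

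Splicing helicases were 11 genes, of which 9 were tested, 2 rose and 1 fell. The share called was 33.3%, against 25.6% of all genes. DDX39A, a paralog of the export and splicing factor DDX39B, had 2521, 2502 and 2539 normalized counts in control and 2230, 2176 and 2346 in RSL3 libraries. No RSL3 library reached the lowest control library. The log2 difference was -0.16 ± 0.04 (SE, edgeR adjusted p = 0.0035), and this call was kept in 13 of 14 alternatives, all but DESeq2 with 2 surrogate variables. DHX8, which releases the spliced mRNA, had 2007, 2077 and 2040 against 2210, 2237 and 2184 (log2 fold change 0.12, edgeR adjusted p = 0.0309). DHX15, which takes the spliceosome apart and also acts on ribosome precursors, had 4401, 4516 and 4198 against 4608, 4706 and 4722 (log2 fold change 0.10, edgeR adjusted p = 0.0393). In both genes the groups did not overlap, but the calls were kept in 6 of 14 alternatives for DHX8 and 7 of 14 for DHX15.

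The other tested splicing helicases, DDX23, DDX41, DDX42, DDX46, DHX35 and DHX38, had log2 fold changes between -0.09 and 0.09. DDX42, a partner of the branch site recognition complex and the one with the highest count of these, had 4440 ± 102 normalized counts in control and 4514 ± 46.4 in RSL3-treated cells (SD, n = 3 each). The interval of its log2 fold change was -0.04 to 0.09. Of 51 other spliceosome proteins listed, 50 were tested, 7 rose and 0 fell by edgeR, with a median log2 fold change of 0.04; at an unadjusted p under 0.05, 1 was lower, SNRPD3. The smallest p values of these belonged to PRPF3 and PRPF4, proteins of the U4/U6 particle, with log2 fold changes of 0.20 and 0.21. The share called was 14.0%, against the background of 25.6%.

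RNA sensing helicases were taken here as DDX60, DDX60L and DHX58. Each helicase was placed in 1 role list only, so helicases with further roles are not counted in this group. DDX60 (ENSG00000137628), an interferon-induced helicase linked to antiviral defence, lies on the minus strand of chromosome 4 from 168216291 to 168318883. It had 932, 845 and 1046 normalized counts in control replicates 1, 2 and 3, and 602, 597 and 662 in RSL3 replicates 1, 2 and 3. The highest RSL3 library was well below the lowest control library. The means were 941 ± 101 and 620 ± 36.0 (SD, n = 3 each), a log2 fold change of -0.60 (standard error 0.07, 95% interval -0.76 to -0.45, edgeR adjusted p = 3.19e-06).

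DHX58, or LGP2, a regulator of the RNA receptors RIGI and IFIH1, moved the same way. It had 478, 547 and 554 normalized counts in control and 409, 365 and 423 in RSL3 libraries, without overlap. The log2 difference was -0.40 ± 0.09 (SE, edgeR adjusted p = 0.00183). DDX60L, the neighbour and paralog of DDX60, had 1307, 1263 and 1330 against 1351, 1320 and 1344 normalized counts, and the groups overlapped (log2 fold change 0.04, 95% interval -0.06 to 0.14). The log2 ratio of DDX60 to DDX60L was -0.49, -0.58 and -0.35 in the control libraries and -1.17, -1.14 and -1.02 in the RSL3 libraries. These ratios did not overlap and their means differed by -0.64. The exact two-sided permutation p was 0.1, the smallest that 3 against 3 libraries allow. DDX60 alone already separated the groups, so the ratio is a description and not independent evidence. Reads that align equally well to both paralogs cannot be assigned from these counts.

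Other genes of RNA sensing and the interferon response were read as a list of 45, of which 41 passed the filter. Each gene was tested alone, and the list was not tested as a set. Of these 41, 22 fell and 3 rose, so 53.7% were downregulated against 12.7% of all genes, and the median log2 fold change was -0.19. TLR3, the endosomal receptor for double-stranded RNA, had 307, 330 and 334 normalized counts in control and 161, 152 and 198 in RSL3 libraries (log2 fold change -0.92). SAMD9L, an interferon-induced antiviral gene, had 1350, 1285 and 1457 in control and 874, 962 and 964 in RSL3 libraries (log2 fold change -0.55). Neither gene's groups overlapped. The cytoplasmic RNA receptor IFIH1 fell (log2 fold change -0.36, edgeR adjusted p = 0.0221). RIGI, which formerly carried a DDX symbol, had a log2 fold change of -0.09 and was not called (edgeR adjusted p = 0.5). MAVS, the adaptor of both receptors, and ZC3HAV1, which binds viral RNA, rose instead, with log2 fold changes of 0.18 and 0.19.

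**Figure D3:**
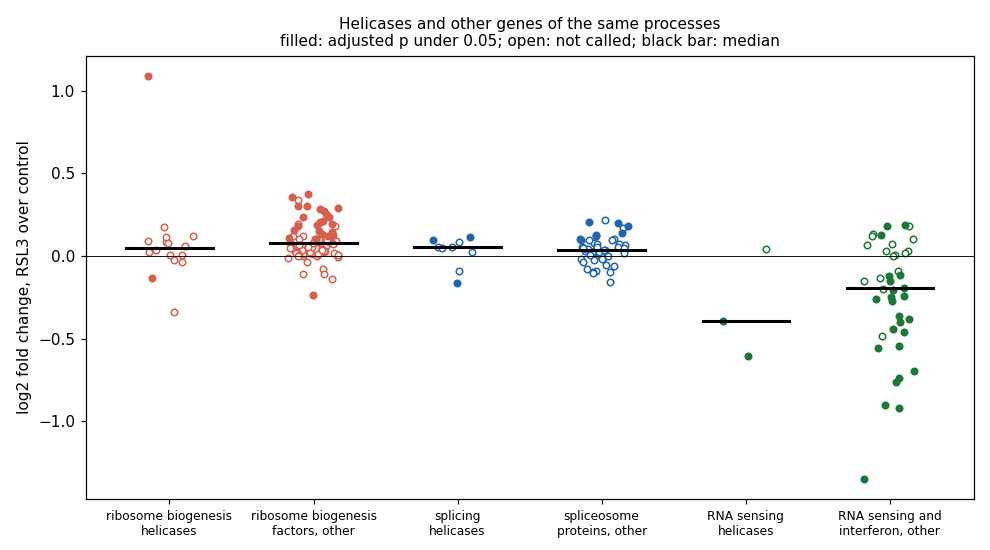
Log2 fold change, RSL3 over control, of each tested helicase of 3 processes beside other genes of the same process. Points are genes, filled where the adjusted p was under 0.05, and black bars are medians; the ribosome biogenesis helicases have a median of 0.05 (0.04 without DDX10), and the RNA sensing lists have medians of -0.40 and -0.19.

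Helicases of mRNA export, translation and decay were 7 genes, all tested, of which 3 (42.9%) rose, against 12.9% of all genes, and 0 fell by edgeR, and 0 were lower at an unadjusted p under 0.05. DHX36, which unwinds G-quadruplexes in mRNA, had 3237, 3328 and 3113 normalized counts in control and 3692, 3688 and 3425 in RSL3 libraries. All RSL3 libraries were above the controls. The log2 difference was 0.16 ± 0.04 (SE, edgeR adjusted p = 0.00384), and this call held in all 14 alternatives. DHX34, an activator of nonsense-mediated decay, had 1373, 1520 and 1309 against 1590, 1561 and 1596 (log2 fold change 0.18, edgeR adjusted p = 0.0125). DDX3X, a translation factor for structured leaders and one of the most abundant helicases, had 13591, 14450 and 14357 against 15574, 15141 and 15085 (log2 fold change 0.11, edgeR adjusted p = 0.00923). In neither gene did the groups overlap, but DHX34 lost its call without control replicate 1 or 3 and with DESeq2 and 2 surrogate variables, and DDX3X without control replicate 1 or RSL3 replicate 1. DHX29, which helps the small subunit scan, was not called at 2176 ± 24.6 against 2053 ± 127 normalized counts (SD, n = 3 each; log2 fold change -0.08). Without RSL3 replicate 2 it was called lower (-0.13, edgeR adjusted p = 0.0485), and without RSL3 replicate 1 its value was -0.05. DDX6, DDX19A and DDX19B had log2 fold changes between -0.01 and 0.07.

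**Figure D4:**
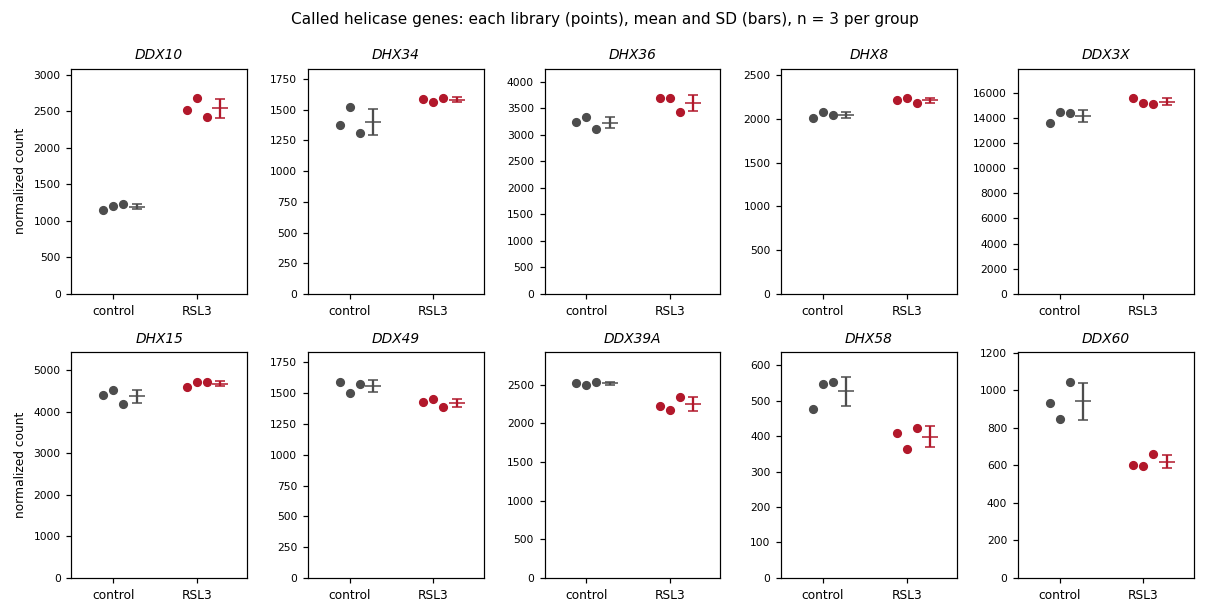
Normalized counts of the 10 called helicase genes in each of the 6 libraries (points), with mean and SD of each group beside them (n = 3); each vertical axis starts at 0. Groups do not overlap in any of the 10 genes, which were called from these same libraries. Among all genes tested, 38.6% had no overlap. DDX10 has the largest change of the 10, from a mean of 1195 to 2542.

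Of the remaining helicases, 0 were called by edgeR, against 25.6% of all genes tested. At an unadjusted p under 0.05 there was 1, DDX1. The DESeq2 fits called 0 of these remaining helicases as well, while DDX1 was called in 2 of the 14 alternative settings. These were DDX1, DDX5, DDX11, DDX17, DDX20 and DHX9 of transcription and other nuclear steps, the mitochondrial DDX28 and DHX30, and DDX59, DHX32, DHX40 and DHX57, whose roles are less well defined. DDX1, which takes part in tRNA ligation, had 5304, 5346 and 5451 normalized counts in control and 5139, 4984 and 5050 in RSL3 libraries, without overlap (log2 fold change -0.09, edgeR adjusted p = 0.0511). DDX17, a coregulator of transcription and splicing, had 16510 ± 532 against 16617 ± 150 (SD, n = 3 each), with a 95% interval of its log2 fold change from -0.05 to 0.07. DHX30, which assembles mitochondrial ribosomes, had 2826 ± 94.6 against 2784 ± 107, and DHX40 had 3967 ± 98.2 against 3971 ± 160 (SD, n = 3 each). DDX11 has a near-identical pseudogene family and DDX19A and DDX19B are close paralogs, so their counts are uncertain. Other annotated genes also overlapped 27.0% of the exon bases of DDX19A and 20.9% of those of DDX19B.

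Levels differed far more between helicases than between groups. Per kilobase of annotated exon, the mean level over the 6 libraries was 48.6 CPM for DDX17, 42.2 for its paralog DDX5 and 27.2 for DDX3X. DDX10 was at 3.04 CPM per kilobase, below DDX60L at 3.18 and above DDX60 at 1.32. The length used is that of all annotated exons of a gene, merged, and not of the expressed mRNA. Without scaling to length, DDX10 was at 54.8 CPM, above DDX60L at 38.7 and DDX60 at 22.9.

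The 6 genes not tested were DDX4, DDX25, DDX43 and DDX53, which are known mainly from the germline, and the splicing genes DDX39B and DHX16. DDX25, DDX43 and DDX53 had 0 counts in every library, which allows up to 0.108 CPM (3 counts) in the smallest library, for counting error only, and DDX4 had 0 to 3 counts. DDX39B had 0 to 4 counts and DHX16 had 2 to 8, although both act in the splicing of most genes. Genes around them were low too: within 250000 bases, 34 of 35 protein-coding neighbours of DDX39B and 17 of 17 of DHX16 had a mean under 100 counts. For the low-count DDX24 and DDX52 this was so for 10 of 10 and 5 of 6 neighbours, and for DDX47 for 2 of 8, against 45.8% of all protein-coding genes. Other annotated genes also overlapped 30.8% of the exon bases of DDX39B and 36.5% of those of DDX47. The overlap was 2.31% for DHX16, 6.52% for DDX52 and 7.49% for DDX24. These genes were looked at after their counts were seen, how the counting dealt with reads of these regions was not tested, and no level should be read from them.

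Helicases named otherwise were also read. Of 19 listed, 18 were tested, 2 rose and 4 fell, so that 33.3% were called against 25.6% of all genes. SNRNP200, AQR, IFIH1 and RIGI are also in the spliceosome or RNA sensing list above, so these lists are not separate. The log2 fold changes ran from -0.68 to 0.14. EIF4A2, a DEAD box translation initiation factor, fell from 11552 ± 291 to 9764 ± 230 normalized counts (SD, n = 3 each; log2 fold change -0.24, edgeR adjusted p = 4.28e-06), and ASCC3, which splits stalled ribosomes, fell with a log2 fold change of -0.16. UPF1, the helicase of nonsense-mediated decay, and AQR, of the spliceosome, rose with log2 fold changes of 0.14 and 0.13.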

How the data were processed

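Poly(A) RNA of U87MG cells was sequenced in 3 control and 3 RSL3 libraries. The values deposited by the authors are raw read counts per Ensembl gene, as whole numbers without normalization. The authors trimmed reads with Trimmomatic 0.36 and Fastp, used HISAT2 and GRCh38.p4 for alignment, and ran HTSeq-count 0.6.1p1 on exons without regard to strand; the annotation release is not given in the sources used here. Because the counting ignored strand, reads shared by overlapping genes cannot be assigned.

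Of 65988 identifiers, 56434 matched a symbol in a name table; gene type, position, exon length and overlap came from GENCODE v44 on GRCh38. The test used edgeR 4.0.16 under R 4.3.3: filterByExpr (minimum count 10), TMM, and the quasi-likelihood F test without covariates, threshold 0.05. Standard errors are the absolute log2 fold change divided by the square root of F. Since the study used DESeq2 with surrogate variables, their number not stated, DESeq2 1.42.0 with 0, 1 or 2 variables from sva 3.50.0 was an alternative. Replicate pairs of 1 group differed by more than counting noise (chi-square per degree of freedom 2.43 to 5.58), which shows that none is a copy of another and not that they came from separate cultures; each was used as 1 sample. The scripts were tested on simulated data.

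Genes named were DDX10 and DDX60, the called genes of each role list (at most 3 in each direction where more than 4 were called), the most abundant uncalled gene of each, the extremes of level, the neighbours of DDX10, and the called genes with the smallest p of each further list; others are named to complete a group, and 1 marker gene is not reported here. The genes and lists were chosen with earlier results of these data known. Promoter windows came from a RefSeq table, which held 48 of the 53 genes; all of their windows matched the genome sequence.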

Additional observations from a re-analysis of the deposited data

How the results depend on the processing

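Of the 10 called helicases, 4 (DDX10, DDX60, DHX36 and DHX58) kept direction and call in all 14 alternative fits. The log2 fold change of DDX10 stayed between 1.05 and 1.13. With DESeq2 and 2 surrogate variables, 5 helicases were called, 3 upregulated and 2 downregulated. With the size limit of 0.25 on the log2 scale added, 3 were left, of which 1 was upregulated and 2 downregulated. With each library left out in turn, between 6 and 10 were called, 2 to 6 upregulated and 3 to 4 downregulated; only 2 were upregulated without control replicate 1. The cause of these differences was not tested. Each fit with a library left out also used fewer libraries. The share of all genes called in each alternative fit, the replicate block below included, is not given here. These counts can therefore not be read as particular to helicases.

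The replicate number as a block gave 14 called helicases, 8 upregulated and 6 downregulated, adding DDX1, DDX27, DHX37 and DDX41. Whether the numbers pair the libraries is not known. Deviations of same-numbered libraries from their group means correlated at 0.0274, 0.0274 and 0.0701, and every library correlated best with its own number. Uncalled genes near 0 changed sign. With each library left out, the log2 fold change ranged from -0.017 to 0.030 for DDX17, from -0.119 to 0.249 for DDX47, from -0.042 to 0.011 for DHX30 and from -0.028 to 0.023 for DHX40, which was at -0.006 with total counts. DDX19B, DDX24, DDX47 and DDX52 had low counts and wide 95% intervals that include 0. The reason for their low counts was not tested.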
